A study of Homo sapiens with 12 samples.

Results

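The 4 genes *TCF7L2*, *LHX9*, *LHX5* and *FOXP2*, which encode transcription factors used as landmarks of the thalamus and the surrounding diencephalon, were followed in RNA-seq data of cerebral organoids (COs). They were taken by gene symbol, and all 4 were among the 10976 genes with a deposited value. The COs were grown without regional guidance. WT COs came from the human embryonic stem cell line H1, and KO COs from KO#2 or KO#10, H1 clones in which *c-JUN* was targeted by CRISPR-Cas9 editing. All lines went through the same CO culture, and the WT COs carried no edit. Each library held RNA of several pooled COs, and there were 2 libraries for each line at day 12 and 2 at day 24, which gave 2 WT and 4 KO libraries per day. The labels do not say whether replicates came from separate cultures, so that the spread between libraries may be partly technical, and KO#2 and KO#10 are a single clone each.

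The thalamus arises from the caudal diencephalon, between the prethalamus in front and the pretectum behind, and its progenitors and neurons are told apart by combinations of transcription factors. TCF7L2 is an HMG-box factor that binds beta-catenin at WNT target genes, and in the brain it is known from thalamic and habenular neurons. LHX9 and LHX5 belong to the LIM homeodomain family, which acts together with LDB cofactors. *LHX9* is expressed in thalamic and pretectal neurons among others, and *LHX5* in the early anterior forebrain and in Cajal-Retzius cells. FOXP2 is a forkhead factor of deep-layer cortical, striatal and thalamic neurons and is known for its role in human speech.

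In KO COs, *FOXP2* and *LHX9* were higher at day 24 than at day 12 and higher than in WT COs of day 24, whereas *TCF7L2* was lower at day 24 than at day 12 by less than 2-fold. *LHX5* passed the test in no comparison made here. The calls of *LHX9* and *FOXP2* against WT were each lost when most KO libraries of day 24 were left out in turn. That of *FOXP2* was also lost under some other alternatives. For neither gene did the main fit show a change over time that differed between KO and WT. The values are normalised whole-number scores without a unit, and the sequencing depth behind them is unknown. All libraries have a median of 17 over genes, a highest value of 5585 and 269 to 271 distinct values. Since all values of the 4 genes lay between 1 and 24, a rounding step of 1 was a large part of the lowest values. The values are not known to be scaled to gene length, so that levels are compared between libraries and not between genes. In bulk RNA, fewer cells of a type and less RNA per cell cannot be told apart.

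The genes lie on separate chromosomes. *TCF7L2* (ENSG00000148737) is at chr10:112950247-113167678 on the plus strand, *LHX9* (ENSG00000143355) at chr1:197911902-197935478 on the plus strand, *FOXP2* (ENSG00000128573) at chr7:114086327-114693772 on the plus strand and *LHX5* (ENSG00000089116) at chr12:113462033-113472280 on the minus strand. All 4 are protein-coding genes in GENCODE release 29 (GRCh38), with 30, 8, 27 and 2 annotated transcripts in the same order, and a gene's value sums over its transcripts as far as the files show. In that release 8 other genes overlap them, of which *LHX5-AS1*, an antisense transcript of the *LHX5* locus, is the only gene with values in these files.

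RefSeq promoter windows (GRCh38.p14) were matched for 3 of the 4 genes, in 7 windows, and none was matched for *LHX5*. A window upstream of a start is shown for *TCF7L2* and for *FOXP2*, since these genes moved in opposite directions between the days in KO COs. Each runs from 5′ to 3′ over the 250 bases before the start. The *TCF7L2* window (chr10:112949997-112950246, plus strand) ends 1 base before the gene interval in the files, and the *FOXP2* window (chr7:114414565-114414814, plus strand) lies in an intron of the longer annotated gene. Capitals would mark matches to the motifs named next, and there were none.
TCF7L2: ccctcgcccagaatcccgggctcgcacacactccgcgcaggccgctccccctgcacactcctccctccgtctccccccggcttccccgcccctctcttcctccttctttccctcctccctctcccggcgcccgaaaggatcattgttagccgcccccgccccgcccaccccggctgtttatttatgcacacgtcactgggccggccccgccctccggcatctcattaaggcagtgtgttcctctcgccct
FOXP2: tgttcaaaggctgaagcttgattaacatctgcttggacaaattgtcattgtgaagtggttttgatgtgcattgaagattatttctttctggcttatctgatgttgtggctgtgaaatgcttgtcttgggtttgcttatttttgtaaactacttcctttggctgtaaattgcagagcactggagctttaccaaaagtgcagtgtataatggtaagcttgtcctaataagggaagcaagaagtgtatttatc

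Both strands of the 7 windows, 300 bases each, were searched for TGANTCA (AP-1, the motif bound by c-JUN dimers), TGACGTCA (CRE), ATCAAAG (TCF/LEF), TAATTA (homeodomain) and TGTTTAC (forkhead). No motif contains the letters of another, and no window held a match. Among all 35116 windows of this length, 7.71% held the AP-1 letters, 1.85% the CRE, 2.62% the TCF/LEF, 4.84% the homeodomain and 3.42% the forkhead letters. The 250 upstream bases had a GC content of 68.0% in the *TCF7L2* window shown and 37.6% in the *FOXP2* window shown, beside a median of 58.0% over all windows. The other *TCF7L2* windows had 42.4% and 48.4%, and the other *FOXP2* window had 35.6%. The values per gene do not show which start was used.

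The edited gene was examined first. *JUN* had values of 13 and 15 in the WT libraries of day 24, 39 and 39 in KO#2, and 29 and 32 in KO#10. Its RNA was thus higher in the libraries labelled KO, by a log2 of 1.25 ± 0.17 (SE, adjusted *p* = 0.0184 in limma), or 1.33 without KO#10 replicate 1 of that day. At day 12 it was 4 and 8 in WT and 13 to 19 in KO. The values cannot tell if the targeted sequence was still there, and KO stands here for the libraries labelled as such. The paper reports no c-JUN protein in both clones by western blot and no *c-JUN* RNA in KO COs by RT-qPCR. Why the RNA values here differ from that was not tested.

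Library KO#10 replicate 1 of day 24 stood apart from the other KO libraries of that day. Its values correlated with those of its replicate with r = 0.909 over the 10976 genes, beside 0.946 to 0.957 in the other 5 pairs. A summed value of 11 neuron marker genes was 435 in it and 1450 to 2090 in the other 3 KO libraries of day 24. A sum of 5 mesenchyme markers reached 2520 in the KO libraries, in this same library, and 1982 to 2276 in WT. The differences of the 4 genes from WT at day 24, that of *JUN* and the list counts are therefore given with and without it. Over all genes 744 were called at day 24 with it and 1346 without it, so that list counts without it stand beside more calls in general.

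*LHX9* separated WT from KO COs at day 24. Its value was 2 and 2 in the WT libraries, 11 and 13 in KO#2, and 8 and 24 in KO#10. All 4 KO libraries lay above both WT libraries, and the widest spread was between the replicates of KO#10. The difference between KO and WT was a log2 of 2.22 ± 0.40 (SE) on the log2 (value + 1) scale (4 KO and 2 WT libraries, adjusted *p* = 0.0235 in limma), which passed both limits of a call (adjusted *p* below 0.05, change of 2-fold or more). Without KO#10 replicate 1 it was 2.43 (adjusted *p* = 0.00781). Leaving out any other library kept the size between 1.94 and 2.29 but lost the call, with adjusted *p* up to 0.245. The 2 WT libraries had the same rounded value, so that the error rests on the KO libraries and on the spread shared over genes.

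*FOXP2* was 4 and 8 in WT at day 24, 11 and 21 in KO#2, and 14 and 24 in KO#10. The highest WT library was below the lowest KO library, and in each line replicate 2 had the higher value. The difference was a log2 of 1.40 ± 0.36 (SE, adjusted *p* = 0.0464 in limma). Without KO#10 replicate 1 the adjusted *p* was 0.0397. The call was lost without the filter on low values (adjusted *p* = 0.0542), without a trend of the variance (0.0505) and with the clones as separate groups (0.0640). It was lost as well when any library other than KO#10 replicate 1 was left out, with sizes of 0.98 to 1.83 and adjusted *p* of 0.0592 to 0.245.

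*LHX9* and *FOXP2* were above the filter for low values at day 24 by KO libraries alone, since no WT library reached 10. Of all 9289 genes tested, 8.01% were called at day 24, 392 as higher (4.22%) and 352 as lower (3.79%). Of the 4 genes described here, 2 were called, both of them higher. An exact permutation test of 2 against 4 libraries cannot go below *p* = 0.0667 (two-sided), and *LHX9* and *FOXP2* both reached this smallest value.

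*TCF7L2* was 13 and 17 in WT at day 24, 9 and 10 in KO#2, and 13 and 9 in KO#10. The groups touched at 13, the value of KO#10 replicate 1 and of WT replicate 1. The KO-minus-WT difference was a log2 of -0.51 ± 0.21 (SE, adjusted *p* = 0.121 in limma), which did not pass. Its 95% confidence interval ran from -1.0 to -0.021 before adjustment. Without KO#10 replicate 1 it was -0.62 (adjusted *p* = 0.0398), and in a fit of all 12 libraries the adjusted *p* was 0.0488, both under 2-fold. With WT replicate 2 left out it was -0.33 (adjusted *p* = 0.540), and with WT replicate 1 left out -0.69 (0.171). For the remaining KO libraries left out in turn the adjusted *p* was 0.198 to 0.224.

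*LHX5* was 14 and 8 in WT at day 24, 12 and 17 in KO#2, and 19 and 18 in KO#10. The values of WT replicate 1 and KO#2 overlapped, while KO#10 lay above all of them. The difference was a log2 of 0.57 ± 0.26 (SE, adjusted *p* = 0.157 in limma, 95% confidence interval -0.05 to 1.19). Without KO#10 replicate 1 it was 0.50 (adjusted *p* = 0.217). Single WT libraries moved it more, to 0.20 without WT replicate 2 and 0.94 without WT replicate 1, and it passed in neither case (adjusted *p* = 0.696 and 0.115). The antisense gene *LHX5-AS1* was 13 and 3 in the WT libraries, 12 and 12 in KO#2, and 26 and 15 in KO#10 on the same day. In WT and KO#10 its 2 libraries stood in the same order as those of *LHX5*. The libraries were strand-specific, but how the counting used the strand is not given in the sources used here, so that shared reads of the 2 genes cannot be told apart.

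**Figure D1:**
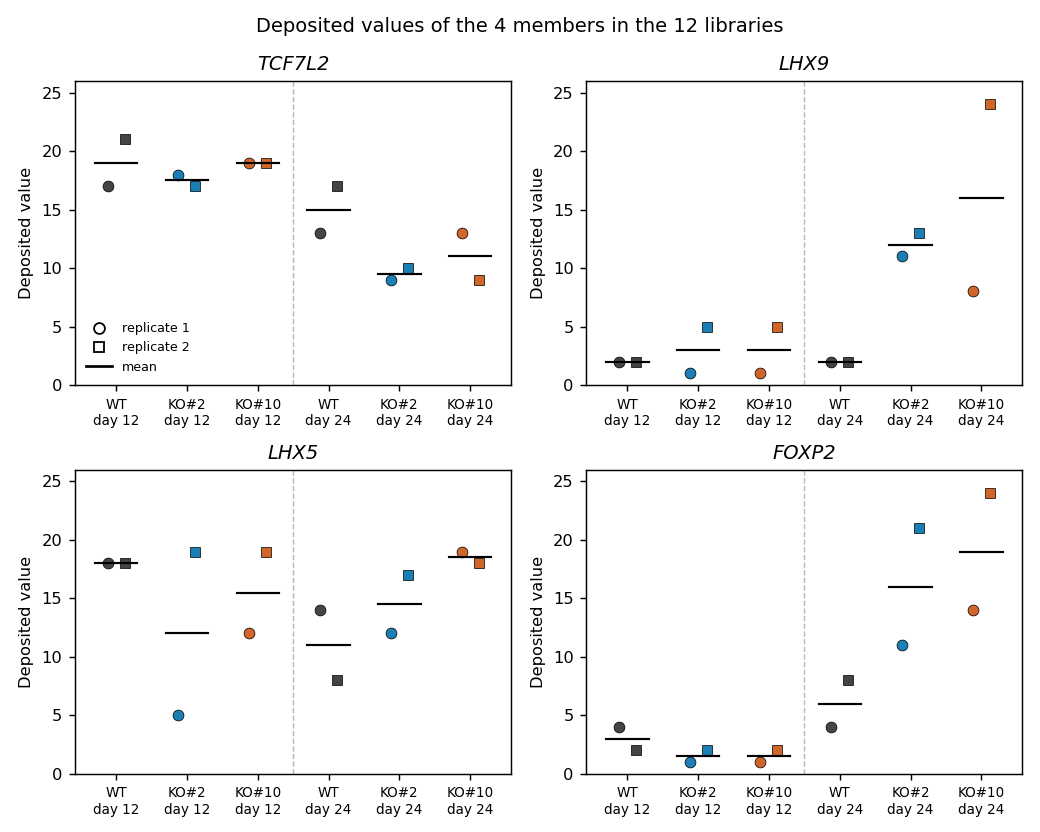
Deposited value (vertical axis, normalised score without a unit) of each gene in the 12 libraries, grouped by line and day along the horizontal axis. Circles are replicate 1, squares replicate 2 and bars the mean of the 2 libraries. *LHX9* and *FOXP2* are at 8 to 24 and 11 to 24 in the KO libraries of day 24 and at 5 or less in all libraries of day 12, while *TCF7L2* is at 17 to 21 at day 12 and 9 to 13 in the KO libraries of day 24.

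The clones were then compared with each other and each with WT. At day 24 *LHX9* was higher in KO#2 than in WT by a log2 of 2.11 ± 0.50 (SE, adjusted *p* = 0.0488 in limma) and in KO#10 by 2.32 ± 0.50 (adjusted *p* = 0.0979), so that only KO#2 passed. Before adjustment the limma *p* was 0.0058 in KO#2 and 0.0037 in KO#10, so that the adjustment over all genes set them apart. Over all genes tested, 9% were called for KO#2 and 0.28% for KO#10. *FOXP2* passed in neither clone, with a log2 of 1.28 ± 0.45 (adjusted *p* = 0.0981) in KO#2 and 1.53 ± 0.45 (adjusted *p* = 0.137) in KO#10. Between KO#2 and KO#10 limma called 0 of 9289 genes, while 479 genes (5.16%) had an unadjusted *p* under 0.05. For the 4 genes the KO#2-minus-KO#10 differences were small but with wide 95% confidence intervals, from -1.44 to 1.01 for *LHX9*, -1.36 to 0.85 for *FOXP2*, -0.78 to 0.43 for *TCF7L2* and -1.08 to 0.38 for *LHX5* (log2). The intervals of *LHX9*, *FOXP2* and *LHX5* include differences of 2-fold.

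At day 12 neither of the 2 genes above the filter passed. *TCF7L2* was 17 and 21 in the WT libraries, 18 and 17 in KO#2, and 19 and 19 in KO#10. All KO values fell within the WT range, and the difference was a log2 of -0.05 ± 0.14 (SE, adjusted *p* = 0.939 in limma). *LHX5* was 18 and 18 in the WT libraries, 5 and 19 in KO#2, and 12 and 19 in KO#10. The WT value lay between the replicates of each clone, with a difference of -0.52 ± 0.45 (SE, adjusted *p* = 0.736).

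*LHX9* was 2 and 2 in WT at day 12, 1 and 5 in KO#2, and 1 and 5 in KO#10. *FOXP2* was 4 and 2 in the WT libraries, 1 and 2 in KO#2, and 1 and 2 in KO#10. No library reached 10 for these 2 genes, so that both were below the filter at day 12. In a fit without the filter the difference was a log2 of 0.21 ± 0.57 (SE, adjusted *p* = 0.933 in limma) for *LHX9* and -0.66 ± 0.29 (adjusted *p* = 0.472) for *FOXP2*. For *LHX9*, *FOXP2* and *LHX5*, replicate 1 was below replicate 2 in both clones at day 12, while WT did not share that order.

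Over all genes at day 12, same-numbered libraries deviated jointly from the means of their lines, and the labels do not say what the number stands for. With the replicate number as a block, *LHX5* kept the difference of -0.52 (adjusted *p* = 0.475) and *TCF7L2* that of -0.05 (adjusted *p* = 0.863). Limma called 8 of 8885 genes at day 12 (0.09%) without the block and 71 with it. None of the 4 genes was among them.

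The change from day 12 to day 24 was examined within each genotype, in a fit of all 12 libraries. In KO COs *FOXP2* rose from 1 to 2 at day 12 to 11 to 24 at day 24, with no overlap between the days. The difference was a log2 of 2.86 ± 0.31 (SE, 4 against 4 libraries, adjusted *p* = 6.78e-05 in limma). *LHX9* rose from 1 to 5 at day 12 to 8 to 24 at day 24, by a log2 of 2.01 ± 0.43 (SE, adjusted *p* = 0.00381). In this fit both genes were above the filter by KO libraries of day 24 alone, the group where they are high, since no other library reached 10. Of all 9952 genes tested, 11.5% were called between the days in KO, 5.88% as higher at day 24.

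*TCF7L2* went the other way in KO COs, from 17 to 19 at day 12 to 9 to 13 at day 24, again with no overlap. It fell by 0.79 ± 0.14 (SE) on the log2 scale, with an adjusted *p* of 0.00143 in limma, and was not called because this is under 2-fold. *FOXP2*, *LHX9* and *TCF7L2* each gave *p* = 0.0286 in a two-sided exact permutation test of 4 against 4 libraries, the smallest value it can give. *LHX5* overlapped between the days in KO, with 5 to 19 at day 12 and 12 to 19 at day 24 (log2 0.38 ± 0.33, adjusted *p* = 0.391 in limma, exact permutation *p* = 0.714). For *TCF7L2*, *LHX9* and *FOXP2* these results in KO kept their side of both thresholds when each of the 12 libraries was left out in turn.

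In WT COs none of the 4 genes passed between the days, in a comparison of 2 against 2 libraries in which 15.1% of all genes were called. *TCF7L2* went from 17 and 21 to 13 and 17 and met itself at 17 (log2 -0.33 ± 0.20, adjusted *p* = 0.239 in limma). *LHX9* stood at 2 in all 4 WT libraries. *FOXP2* went from 4 and 2 to 4 and 8 and touched at 4 (log2 0.79 ± 0.45, adjusted *p* = 0.194). *LHX5* went from 18 and 18 to 14 and 8, with no overlap (log2 -0.71 ± 0.47, adjusted *p* = 0.271).

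Whether the change over time differed between KO and WT was tested as an interaction of genotype and day. It was a log2 of 2.06 ± 0.55 (SE) for *FOXP2* (adjusted *p* = 0.0707 in limma), 2.01 ± 0.75 for *LHX9* (0.155), 1.09 ± 0.58 for *LHX5* (0.296) and -0.46 ± 0.25 for *TCF7L2* (0.302). None of the 4 passed, and 1.31% of all genes did. *FOXP2* passed without KO#10 replicate 1 of day 24 (adjusted *p* = 0.0294) and with the replicate number as a block (0.0403). The rise of *FOXP2* and *LHX9* past the threshold in KO and not in WT is therefore not shown to be a difference between the genotypes.

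**Figure D2:**
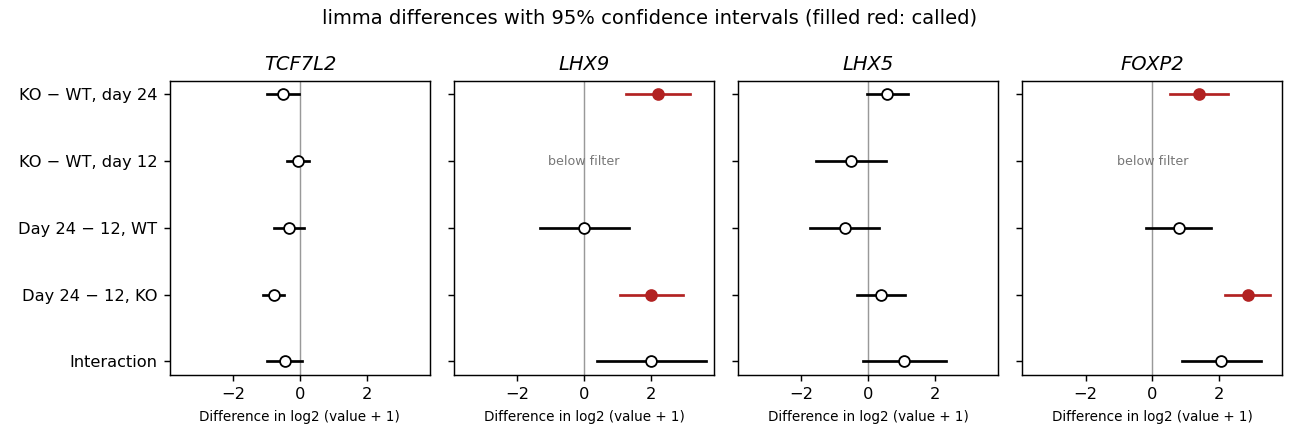
Differences in log2 (value + 1) from limma (horizontal axis) for each gene, with bars for the 95% confidence interval before adjustment. Rows are the comparisons, filled red points were called, and open points were not. Red points are seen for *LHX9* and *FOXP2* in KO against WT at day 24 (2.22 and 1.40) and in day 24 against day 12 in KO (2.01 and 2.86).

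Across the 6 combinations of line and day, the mean value of *TCF7L2* ran from 19 in WT and KO#10 of day 12 through 17.5 in KO#2 of day 12, 15 in WT, 11 in KO#10 and 9.5 in KO#2 of day 24. Of the neighbours in that order, those of KO#10 and KO#2 at day 12 had separate ranges and the others met or overlapped. The order of *LHX9* was 16 in KO#10 and 12 in KO#2 of day 24, 3 in both clones of day 12 and 2 in WT of both days. A gap without overlap lay only between KO#2 of day 24 and the clones of day 12. *FOXP2* ran from 19 in KO#10 and 16 in KO#2 of day 24 through 6 in WT of day 24 and 3 in WT of day 12 to 1.5 in both clones of day 12.

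For *FOXP2* the separate neighbours were KO#2 and WT of day 24. *LHX5* had no separate neighbours, with means of 18.5 in KO#10 of day 24, 18 in WT and 15.5 in KO#10 of day 12, 14.5 in KO#2 of day 24, 12 in KO#2 of day 12 and 11 in WT of day 24. Over the 12 libraries *LHX9* and *FOXP2* correlated with r = 0.83 (rho = 0.83) and *TCF7L2* with *FOXP2* with r = -0.861 (rho = -0.855). These correlations describe libraries that share lines and days.

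Like *LHX9* and *FOXP2*, the summed neuron markers were higher in the KO libraries of day 24 than in all other libraries. The summed value of the 11 neuron markers was 184 to 350 in WT and 435 to 2090 in KO at day 24, and 190 to 287 and 287 to 381 at day 12. Of the 10 neuron markers tested at day 24, 4 were called, all higher in KO (10 of 10 without KO#10 replicate 1), and 11 of 11 were above 0 in every library of day 24. Among the KO libraries of day 24, KO#10 replicate 1 had the lowest neuron sum and the lowest *LHX9* (8), but *FOXP2* (14) was lower in KO#2 replicate 1 (11) at a sum of 1694. The highest *LHX9* (24) was in KO#10 replicate 2 at a sum of 1450, below the sums of KO#2. In WT of day 24 *FOXP2* was 4 and 8 at sums of 350 and 184. *TCF7L2* was 9 to 10 in the 3 KO libraries with sums of 1450 to 2090 and 13 in KO#10 replicate 1.

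Sums of other markers are given for all lists. A sum of 7 pluripotency markers was 439 to 882 in WT and 38 to 60 in KO at day 24, one of 7 epithelial markers 685 to 916 and 41 to 252, and one of 6 endoderm and liver markers 6571 to 6713 and 33 to 1182. Most of the endoderm and liver sum in WT was *AFP*, which was 5585 in both libraries, the highest value any library holds. *AFP* was 0 to 902 in KO. The choroid plexus sum (4 genes) was 510 to 531 in WT and 43 to 198 in KO, and that of 8 neural progenitor markers was 537 to 721 and 989 to 1122. Only the mesenchyme (94 to 2520 in KO) and neural crest sums (15 to 36 in WT, 8 to 26 in KO) overlapped between the genotypes. The part that these cell types had in the values of the 4 genes was not tested.

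**Figure D3:**
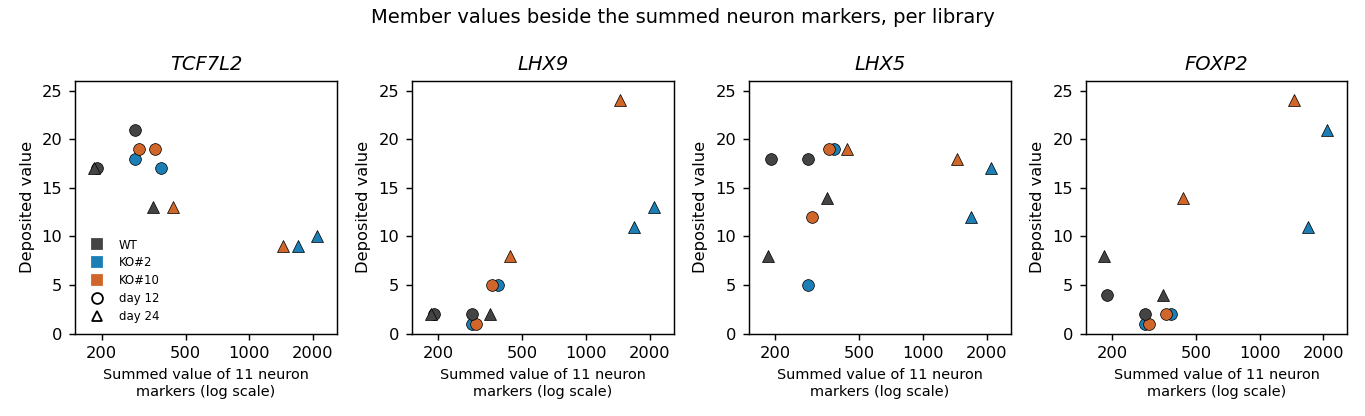
Value of each gene (vertical axis, normalised score) in each library against the summed value of 11 neuron markers (horizontal axis, log scale), with colours for the lines, circles for day 12 and triangles for day 24. The 3 KO libraries of day 24 with sums of 1450 to 2090 have *LHX9* at 11 to 24, *FOXP2* at 11 to 24 and *TCF7L2* at 9 to 10.

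The genes that work with each factor, or mark the same regions, were read from lists of which the 4 genes are not part. Among 14 tested TCF/LEF factors and their cofactors at day 24, 1 was called, with a median log2 difference of 0.24 beside 0.0063 over all genes tested. This was *LEF1*, the TCF/LEF family member and WNT effector, at 12 and 14 in the WT libraries, 27 and 60 in KO#2, and 40 and 78 in KO#10. All KO values of *LEF1* exceeded those of WT (log2 1.80 ± 0.39, adjusted *p* = 0.0322 in limma); *TCF7L2* was 9 to 13 in the same KO libraries. Without KO#10 replicate 1 of day 24, 3 genes of this list were called higher, *LEF1* again and the cofactor genes *PYGO1* and *TLE1*. *CTNNB1*, which encodes beta-catenin, was 819 and 819 in WT and 664 to 1006 in KO.

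Of 5 tested WNT/beta-catenin target genes, 1 was called, with a median of 0.99. *AXIN2*, a negative-feedback target of the pathway, was 11 and 16 in the WT libraries, 19 and 38 in KO#2, and 38 and 40 in KO#10 (difference in log2 1.23 ± 0.32, adjusted *p* = 0.0474 in limma). The groups did not overlap, and *AXIN2* was higher in all 4 KO libraries. It was no longer called without KO#10 replicate 1 (1.15, adjusted *p* = 0.0562), and *DKK1*, a secreted WNT antagonist, was called lower.

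Of 3 tested LIM homeodomain genes limma called 0, with 1 at an unadjusted *p* under 0.05 (median 1.61). Over all 9289 genes tested at day 24, limma gave 37.8% an unadjusted *p* under 0.05. *LMX1A*, a factor of the dorsal midline and roof plate, was 3 and 3 in the WT libraries, 5 and 14 in KO#2, and 28 and 13 in KO#10 (difference in log2 1.79 ± 0.56, adjusted *p* = 0.0674 in limma). *LHX2*, a factor of cortical and thalamic cells, was 28 and 8 in the WT libraries, 69 and 72 in KO#2, and 14 and 77 in KO#10, and overlapped through KO#10 replicate 1 (log2 1.61 ± 0.76, adjusted *p* = 0.166). Of 9 tested LIM domain binding partners it called 0 as well, with 4 at an unadjusted *p* under 0.05 (median 0.18). *LDB1*, the cofactor of LIM homeodomain proteins, was 31 and 38 in WT and 37 to 59 in KO. The largest differences of this list were those of *SSBP2* (log2 1.22 ± 0.46, adjusted *p* = 0.101) and *LDB2* (log2 -1.08 ± 0.37, adjusted *p* = 0.0824). *LHX2* was called higher (2.19, adjusted *p* = 0.0209) and *LDB2* lower (-1.27, adjusted *p* = 0.0364) without KO#10 replicate 1.

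Among 5 FOXP factors, partners and targets limma called 0, with 3 at an unadjusted *p* under 0.05 (median 0.53). The share at that *p* over all genes was 37.8%. *FOXP1*, the close relative of *FOXP2*, was 13 and 13 in WT and 20 to 24 in KO, without overlap. Its difference of 0.70 ± 0.13 had an adjusted *p* of 0.0245 in limma and was under 2-fold. *CNTNAP2*, a neuronal adhesion gene known as a FOXP2 target, was 26 and 31 in the WT libraries, 31 and 114 in KO#2, and 62 and 94 in KO#10 (difference in log2 1.22 ± 0.48, adjusted *p* = 0.111). No gene of this list was called without KO#10 replicate 1 either.

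Of 6 tested genes of thalamic patterning and thalamic neurons limma called 0, with 2 at an unadjusted *p* under 0.05 (median 1.18). The share at that *p* over all genes was 37.8%. *GBX2* and *OLIG3*, defining genes of thalamic neurons and progenitors, were not analysed here. *NEUROG2*, a proneural gene of thalamic and cortical progenitors, was 0 and 0 in the WT libraries, 12 and 32 in KO#2, and 1 and 44 in KO#10 (difference in log2 3.81 ± 1.18, adjusted *p* = 0.0672 in limma). Its value of 1 was in KO#10 replicate 1, and *RORA*, a nuclear receptor of thalamic neurons, was 3 to 7 in all libraries of day 24. With KO#10 replicate 1 left out, 4 of 6 genes were called, all higher in KO, namely *NEUROG2* (4.75, adjusted *p* = 0.00504), *LHX2*, *HES5* and *SLC17A6*. Over all genes that fit called 722 as higher and 624 as lower, beside 392 and 352 with all libraries. Thalamic identity of the COs could therefore not be checked against its defining genes.

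In the prethalamus list 1 of 6 genes tested was called, as higher in KO (median 0.057). This was *PAX6*, which is also a general progenitor gene, at 40 and 34 in WT and 73 to 106 in KO (log2 1.15 ± 0.18, adjusted *p* = 0.0207 in limma). The *DLX* genes of this list, which mark GABAergic lineages, were up to 14 in KO#2, 1 to 8 in WT and at most 1 in KO#10 at day 24. Among 5 genes tested without KO#10 replicate 1, 2 were called higher, *PAX6* and *MEIS2*.

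In the list of the zona limitans and of diencephalic boundaries, 3 of 6 tested genes were called, all higher in KO (median 0.88). *FEZF2*, a forebrain zinc finger gene, was 1 and 3 in WT and 11 to 36 in KO (log2 2.92 ± 0.47, adjusted *p* = 0.0207). *WNT8B*, a WNT ligand of the dorsal and caudal forebrain, was 1 and 7 in WT and 12 to 77 in KO (log2 3.32 ± 0.79, adjusted *p* = 0.0385). *OTX1*, a head homeobox gene, was 4 and 7 in WT and 15 to 25 in KO (log2 1.82 ± 0.27, adjusted *p* = 0.0196). All 3 were also called without KO#10 replicate 1. They were above the filter by KO libraries alone, since no WT library of day 24 reached 10 for them.

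The habenula and pretectum list and the hypothalamus list had 1 tested gene each, and neither was called. *PAX3* was 2 and 8 in WT and 1 to 17 in KO (log2 0.56 ± 0.90, adjusted *p* = 0.666 in limma), and *RAX* 18 and 11 in WT and 0 to 29 in KO (log2 -1.74 ± 1.25, adjusted *p* = 0.339). In the list of the eminentia thalami and Cajal-Retzius cells, 2 of 3 tested genes were called higher (median 1.63), *TBR1* (WT 1 and 0, KO 4 to 27) and *EBF3* (WT 1 and 5, KO 9 to 11). *TBR1* is also a gene of cortical neurons and had its lowest KO value in KO#10 replicate 1, without which both genes were also called.

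In the cortex list 2 of 4 tested genes were called higher in KO (median 2.15), *EMX2* (WT 6 and 4, KO 15 to 60, log2 2.38 ± 0.57, adjusted *p* = 0.0385 in limma) and again *TBR1* (log2 3.63 ± 0.75, adjusted *p* = 0.0301). When KO#10 replicate 1 was left out, 3 of 4 were called higher, *EMX2*, *TBR1* and *EOMES*. No gene of any of these 12 lists was called lower with all libraries, while *DKK1* and *LDB2* were without KO#10 replicate 1. Like *FEZF2*, *WNT8B* and *OTX1*, the genes *TBR1*, *EBF3*, *EMX2* and *NEUROG2* were above the filter at day 24 by KO libraries alone. A gene low in WT is tested only if it is high in KO, so that a call as lower was hardly possible for it. At day 12 limma called 0 of their 43 tested genes, with 8 at an unadjusted *p* under 0.05. Of all 8885 genes tested at day 12, 11% had such a *p* in limma.

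**Figure D4:**
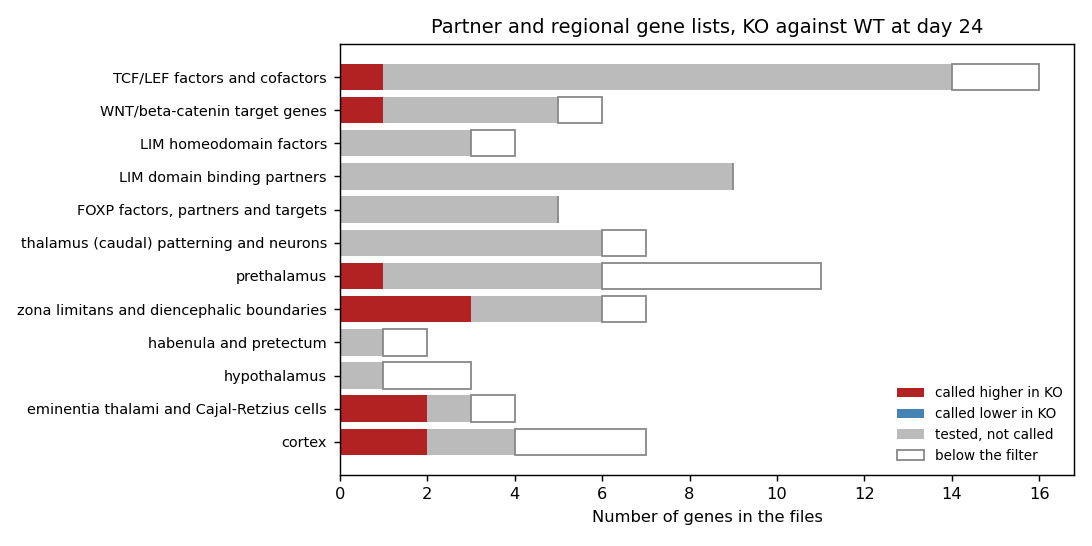
Number of genes of each list in the files (horizontal axis), split into genes called higher in KO at day 24 (red), called lower (none), tested but not called (grey) and below the filter on low values (white). Calls are seen in the lists of TCF/LEF factors (1), WNT targets (1), prethalamus (1), diencephalic boundaries (3), eminentia thalami (2) and cortex (2).

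The genes most like each of the 4 over the 12 libraries, among genes with a mean value of at least 10, were ranked by Pearson's r on the log2 scale. Those of *TCF7L2* were *VCL* (r = 0.97), *ANAPC1*, *SPRY2*, *SERPINH1* and *HJURP* (r = 0.944). *VCL* was 32 to 51 at day 12 and 10 to 21 in KO at day 24. *LHX9* was followed most closely by *BNIP3L* (r = 0.954), *POLE3*, *MAP1B*, *PTPRA* and *TOP2B* (r = 0.935). *MAP1B*, a microtubule-binding gene of growing axons, was 45 to 67 in WT and 107 to 302 in KO at day 24.

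*FOXP2* was followed by *C14orf132* (r = 0.97), *BAZ1A*, *BCL11A*, *SRI* and *SEMA3C* (r = 0.946). *BCL11A*, a zinc finger gene of cortical neurons, was 0 to 2 at day 12, 5 to 7 in WT at day 24 and 11 to 36 in KO at day 24. The likeness was lower for *LHX5*, with *SETMAR* (r = 0.874), *AP3M2*, *CHKA*, *UCP2* and *C1orf198* (r = 0.807). With Spearman's rho in place of r, the 5 leading genes shared 0 of 5 for *TCF7L2*, 2 for *LHX9*, 2 for *LHX5* and 3 for *FOXP2*.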

How the data were processed

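Total RNA was depleted of ribosomal RNA and sequenced in 12 strand-specific libraries. The authors deposited 1 whole-number score per gene and library, for 10976 genes. The scores are normalised, not raw counts. Column sums were 473637 to 483149 and reflect that normalisation, so that depth and counting error are unknown. The submitters' processing notes name bcl2fastq, Bowtie2, RSEM and mm10, but the identifiers are human, and 10975 of 10976 intervals overlapped the same gene in GENCODE release 29 (GRCh38). Coordinates of genes are those of the files.

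Values were transformed as log2 (value + 1). Genes at 10 or more in 2 or more of the libraries compared were fitted with limma 3.58.1 (R 4.3.3, lmFit and eBayes with a trend), and *p* was adjusted by the Benjamini-Hochberg method over all genes tested. Calls needed an adjusted *p* below 0.05 and a change of 2-fold or more. On this scale the fold change of low genes is understated. KO against WT was fitted within a day, clones in 3 groups within a day, and days and the interaction over 12 libraries. The fit was also run on simulated data with independent noise per library. Changed genes in it had mean levels above those of *LHX9* and *FOXP2*, so that it does not cover genes that low. The 4 genes and the 20 gene lists (12 of partners and regions, 8 of cell type markers) were chosen with earlier results of these data known.

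Named genes were the 4 genes, list genes called at day 24, the 2 largest differences of a list without calls, *JUN*, and the 5 genes with the most similar pattern. *LDB1*, *CTNNB1*, *RORA*, the *DLX* genes and the list genes called only without KO#10 replicate 1 of day 24 were named after their values were seen, some list genes are not reported here and are left out of their lists' counts, and marker genes are given as counts and sums. Replicate numbers come from the labels. Deviations of same-numbered libraries correlated with r = 0.428 to 0.598 across genes at day 12, which was taken as pairing, and with -0.106 to 0.346 at day 24, which was not. Alternatives were no filter, a pseudocount of 0.1, no trend, the replicate block, all 12 libraries in a fit, clones as separate groups, and each library left out. A centring of the libraries, and the list counts without KO#10 replicate 1 of day 24, were added after the data were seen. Tables and figures used Python 3.11.15, pandas 2.3.3, numpy 2.4.6, scipy 1.17.1 and matplotlib 3.10.9.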

Additional observations from a re-analysis of the deposited data

Results flagged for a closer look

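For 23 genes described above (the 4 genes, the list genes named and *JUN*), the highest or lowest of the 4 KO libraries of a day was compared with the rest by Dixon's criterion, in 46 groups. None of *TCF7L2*, *LHX9*, *LHX5* and *FOXP2* stood out, and 7 groups of other genes did. The criterion's rate of about 1 in 20 is for continuous values and does not hold for rounded scores with ties. For *SSBP2* and *NEUROG2* at day 12 the remaining KO libraries had identical values, so that any differing library would be flagged.

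At day 24 the lowest KO library was far from the others for *AXIN2* (19, in KO#2 replicate 1), *LHX2* (14, in KO#10 replicate 1) and *TBR1* (4, in KO#10 replicate 1). At day 12 a single library was lower for *SSBP2* (903), *NEUROG2* (2) and *PAX6* (90) and higher for *FOXP1* (35).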

How the results depend on the processing

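The direction and the call of *TCF7L2*, *LHX9* and *LHX5* at day 24, and of all 4 genes between the days, were the same under no filter, a pseudocount of 0.1, no trend, the replicate block, separate clones and centred libraries. For *FOXP2* at day 24 the log2 difference of 1.40 was no longer called under 3 of these (given in the report), and its adjusted *p* over 7 settings was 0.0202 to 0.0640. Its interaction passed with the replicate block at 2.06 (adjusted *p* = 0.0403). The block changed no other call of the 4 genes. The number of genes called moved more. It was 744 at day 24 and 1117 with all 12 libraries in the fit. At day 12 it was 8, and 16 without the trend, 71 with the replicate block and 1 with separate clones. For the interaction it was 130, and 315 with the replicate block. The cause was not tested.

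With single libraries left out, genes called ranged from 2 to 1346 at day 24 (1346 without KO#10 replicate 1, 2 without WT replicate 2), 1 to 4 at day 12, 809 to 1573 between the days in WT and 11 to 916 for the interaction (916 without KO#10 replicate 1 of day 24). Log2 differences at day 24 ranged from 1.94 to 2.43 for *LHX9*, 0.98 to 1.83 for *FOXP2*, -0.69 to -0.33 for *TCF7L2* and 0.20 to 0.94 for *LHX5*, and the interaction of *FOXP2* from 1.64 to 2.49. Signs turned for *TCF7L2* at day 12 (-0.19 to 0.10, positive without WT replicate 2) and for *LHX5* between the days in KO (-0.0047 to 0.57, negative without KO#2 replicate 1 of day 12), neither called. With 2 WT libraries, leaving out 1 assumes that the lone library varies like the KO group. The unknown depth and the rounding limit all values under 10.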
